A study of Mus musculus with 2 samples.

Results

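The D-type cyclins Ccnd1, Ccnd2 and Ccnd3, their kinases Cdk4 and Cdk6, and the Myc family genes Mycn and Myc were followed in single keratinocytes of mouse skin. They are 7 of the 32286 features in the deposited matrices and were chosen by name. All 7 were detected in both libraries and in each class of cells described here. D cyclins bind Cdk4 and Cdk6 and drive cells through G1 by phosphorylating the retinoblastoma protein, which releases E2F factors. Mycn and Myc are related transcription factors that bind E-box DNA with Max and raise growth and cell cycle genes. In basal cell carcinoma and other hedgehog-driven tumours, Ccnd1, Ccnd2 and Mycn are known targets of GLI factors, the effectors of the hedgehog pathway.

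Cells came from skin epidermis of mice that carried Krt14rtTA and Survivin GOF on top of Involucrin-CREER and Rosa-SmoM2 (the Survivin GOF library), and of mice with Involucrin-CREER and Rosa-SmoM2 alone (the control library). Both groups carry a CreER driven by the involucrin promoter, which switches on SmoM2, a Smoothened protein that signals without ligand, fused to YFP. The Survivin GOF mice add a keratin 14-driven rtTA and a gain-of-function allele of Survivin, the protein made from Birc5, which the series' design text describes as tagged with mCherry. The sort took cells that were YFP-positive, CD34-negative and high in integrin α6, and 10000 were loaded per channel. The sources used here give no inducing agent, age, sex or number of animals. There was 1 library per genotype, so no test between genotypes or classes was made. Values are UMI counts summed over the cells of a class, given per 1000000 UMIs of that class (CPM), and each 95% interval covers counting error only.

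The matrices held 11438 Survivin GOF and 24844 control barcodes, and the labels give 8046 cells for the control genotype. At least 1500 genes and at most 10% mitochondrial UMIs left 6922 Survivin GOF and 10993 control cells, of which 6496 and 10240 remained once likely doublets were taken out. The kept cells held a median of 12316 UMIs in Survivin GOF and 7659 UMIs in control. Birc5 stood at 812 CPM in hedgehog-high non-cycling Survivin GOF cells and 5.93 CPM in the control cells of that class. The libraries stood apart in 3 further ways. Cells with a UMI of a Y-linked gene and no Xist UMI made up 25.1% of hedgehog-high Survivin GOF cells and 75.2% of hedgehog-high control cells. Among hedgehog-low cells these shares were 29.5% in Survivin GOF and 71.9% in control. The libraries shared 84 barcodes, 22 of them among cells that passed the filter. Of 27 clusters, 6 drew over 90% of their cells from 1 library, Survivin GOF for clusters 1 and 23 and control for clusters 6, 17, 25 and 26. Genotype, sex makeup and library cannot be told apart in this design, and the main results on hedgehog-high cells are also given within clusters and within sex calls.

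Cells were clustered without the 7 genes, and keratinocyte clusters were classed by the summed CPM of 4 genes that hedgehog signalling induces, among them Ptch1, Gli1 and Hhip. Hedgehog-high clusters had at least 1.5 times the level of all keratinocytes and hedgehog-low clusters less than that level, in every library with at least 50 of their cells. The hedgehog-high clusters were 7, 9 (led by Col14a1 and Basp1), 14 (led by Cenpf, Mki67 and Top2a), 15 (led by Dio2, Pi15 and Krt17) and 23 (led by the interferon-induced Cxcl9, Iigp1 and Cxcl10). Cluster 23 lay just inside the bound, at 375 CPM. Cluster 17 was the highest hedgehog-low cluster, at 213 CPM, and held 1704 control cells and 3 Survivin GOF cells. What the cells of cluster 17 are was not worked out, and they stay among the hedgehog-low keratinocytes unless stated. The class rule gave 1384 Survivin GOF and 2461 control hedgehog-high cells, and 4907 and 7586 hedgehog-low cells. Within each, cells with at least 2 mitotic-core UMIs (G2/M) or at least 3 S-core UMIs (S), counted at 3000 UMIs per cell, were called cycling. Hedgehog-high cells included 617 cycling and 562 non-cycling Survivin GOF cells, and 1235 cycling and 686 non-cycling control cells. Hedgehog-low cells included 1260 cycling and 2762 non-cycling Survivin GOF cells, and 2964 cycling and 2922 non-cycling control cells.

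All 7 genes are protein-coding and are placed here on mm10. Ccnd1 (ENSMUSG00000070348) lies at chr7:144929931-144939925, Ccnd2 (ENSMUSG00000000184) at chr6:127125162-127152193 and Mycn (ENSMUSG00000037169) at chr12:12936093-12941914, all on the minus strand. Ccnd3 (ENSMUSG00000034165) lies at chr17:47505051-47599691, Cdk4 (ENSMUSG00000006728) at chr10:127063534-127067920, Cdk6 (ENSMUSG00000040274) at chr5:3341485-3531008 and Myc (ENSMUSG00000022346) at chr15:61985391-61990374, all on the plus strand. A gene on the opposite strand overlaps Ccnd1 (LTO1), Ccnd2 (Gm43126 and 9330179D12Rik), Ccnd3 (Bysl), Cdk4 (Tspan31) and Cdk6 (Gm17590 and Gm42435). Strand use in counting is not stated in these sources, so reads of these pairs may not be told apart. Mycn and Myc have no overlapping gene.

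The sequences before the transcription starts of Cdk4 and Mycn are shown because both genes were higher in hedgehog-high cells and each holds a repeated cell cycle motif. They are RefSeq promoters on GRCm38.p6, trimmed to the bases outside the annotated transcript and printed 5′ to 3′ on the gene's strand. Capitals mark CACGTG, the E-box bound by Myc family proteins with Max, in Cdk4 and TTTGGCGC, an E2F motif, in Mycn.
Cdk4, chr10:127063285-127063533, plus strand: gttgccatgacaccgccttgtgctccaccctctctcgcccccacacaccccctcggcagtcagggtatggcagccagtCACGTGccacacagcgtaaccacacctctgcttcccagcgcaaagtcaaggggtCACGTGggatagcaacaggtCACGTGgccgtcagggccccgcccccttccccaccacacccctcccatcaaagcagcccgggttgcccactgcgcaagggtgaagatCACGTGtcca
Mycn, chr12:12941915-12942086, minus strand: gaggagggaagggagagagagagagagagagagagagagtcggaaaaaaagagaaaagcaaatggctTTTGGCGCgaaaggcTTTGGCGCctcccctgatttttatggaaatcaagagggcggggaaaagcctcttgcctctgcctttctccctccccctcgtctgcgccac
Both strands were searched over the 250 bases before the start in 32851 RefSeq promoters. Cdk4 held 4 copies of CACGTG, which begin 172, 118, 98 and 11 bases before the RefSeq start, itself 1 base inside the annotated transcript. At least 1 copy occurred in 6.02% of promoters and at least 4 copies in 7 promoters (0.0213%). Mycn held 2 copies of TTTGGCGC, which begin 183 and 168 bases before the RefSeq start. That start lies 78 bases inside the annotated transcript, so the sequence printed for Mycn ends 78 bases before it. At least 1 copy occurred in 0.417% of promoters and at least 2 copies in 2 promoters (0.00609%). The GLI motif GACCACCCA, found in 0.225% of promoters, was absent from the windows of the 4 genes in the table (Ccnd3, Mycn, Cdk4 and Cdk6), which says only that these letters are not there. These matches describe sequence and are no evidence of binding.

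Pooled over clusters, hedgehog-high keratinocytes held far more Mycn and less Myc than hedgehog-low keratinocytes, with more Cdk4, Cdk6 and Ccnd1, in both libraries. Non-cycling cells are compared first, so that the share of dividing cells does not enter. Ccnd1, the cyclin most often linked to growth-factor signalling, stood at 469 CPM in hedgehog-high and 253 CPM in hedgehog-low Survivin GOF cells. In control it stood at 368 CPM in hedgehog-high and 209 CPM in hedgehog-low cells. The ratios were 1.85 (95% interval 1.78 to 1.93) in Survivin GOF and 1.76 (1.67 to 1.85) in control. Both libraries thus placed pooled Ccnd1 higher in hedgehog-high cells by a like factor, but single clusters overlapped. In non-cycling Survivin GOF cells, hedgehog-high clusters ran from 256 CPM (cluster 15) to 583 CPM and hedgehog-low clusters from 22.4 CPM (cluster 18) to 360 CPM (cluster 6). The control ranges were 251 CPM (cluster 15) to 502 CPM and 37.8 CPM (cluster 18) to 396 CPM (cluster 11). Cluster 18 was led by the sebaceous gland marker Cidea with Fa2h and Elovl6.

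Ccnd2, a closely related D cyclin, was less separated between the classes. In Survivin GOF it stood at 702 CPM in hedgehog-high and 464 CPM in hedgehog-low cells, a ratio of 1.51 (1.47 to 1.56). In control it stood at 342 CPM in hedgehog-high and 274 CPM in hedgehog-low cells, a ratio of 1.25 (1.19 to 1.31). Ccnd3, the D cyclin best known from lymphocytes, was the lowest of the family in UMIs. It stood at 33.4 CPM in hedgehog-high and 20.9 CPM in hedgehog-low Survivin GOF cells (ratio 1.60, 1.38 to 1.84). The control values were 34.2 CPM in hedgehog-high and 23.02 CPM in hedgehog-low cells (ratio 1.49, 1.26 to 1.74). Each of the D cyclins was therefore higher in hedgehog-high cells, with the smallest ratio for Ccnd2.

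Cdk4, the kinase partner of D cyclins in most epithelia, stood at 227 CPM in hedgehog-high and 93.8 CPM in hedgehog-low Survivin GOF cells. In control it stood at 206 CPM in hedgehog-high and 94.9 CPM in hedgehog-low cells. The ratios were 2.42 (2.29 to 2.57) in Survivin GOF and 2.17 (2.02 to 2.32) in control. Its relative Cdk6 was at 105.5 CPM in hedgehog-high and 55.0 CPM in hedgehog-low Survivin GOF cells (1.92, 1.77 to 2.08). Control cells had 96.7 CPM of Cdk6 in the hedgehog-high class and 65.6 CPM in the hedgehog-low class (1.47, 1.34 to 1.62). Cdk4 made up 68.3% of the summed UMIs of both kinases in hedgehog-high and 63.05% in hedgehog-low Survivin GOF cells. In control these shares were 68.05% in hedgehog-high and 59.1% in hedgehog-low cells. UMIs count 3′ tags of transcripts and were not divided by gene length, and capture may differ between genes.

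Mycn showed the widest separation of the 7 genes. In Survivin GOF it stood at 175.5 CPM (1356 UMIs) in hedgehog-high and 3.40 CPM (131 UMIs) in hedgehog-low cells, a ratio of 51.6 (43.1 to 62.2). In control it stood at 115.5 CPM (682 UMIs) in hedgehog-high and 6.75 CPM (186 UMIs) in hedgehog-low cells, a ratio of 17.1 (14.5 to 20.2). Myc, the family member long tied to epidermal stem cell exit, went the other way. In Survivin GOF it stood at 11.4 CPM (88 UMIs) in hedgehog-high and 54.1 CPM (2086 UMIs) in hedgehog-low cells, a ratio of 0.210 (0.168 to 0.260). In control it stood at 20.7 CPM (122 UMIs) in hedgehog-high and 51.1 CPM (1408 UMIs) in hedgehog-low cells, a ratio of 0.404 (0.333 to 0.486). Mycn thus supplied 93.9% of the UMIs of the pair in hedgehog-high and 5.91% in hedgehog-low Survivin GOF cells. The control shares were 84.8% in hedgehog-high and 11.7% in hedgehog-low cells. Summed, the pair stood at 187 CPM in hedgehog-high and 57.5 CPM in hedgehog-low Survivin GOF cells, and at 136 and 57.9 CPM in those classes of control. Mycl, another family gene outside the 7, stood at 27.6 CPM in hedgehog-high and 51.9 CPM in hedgehog-low Survivin GOF cells, and at 42.8 and 68.4 CPM in the same classes of control.

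**Figure D1:**
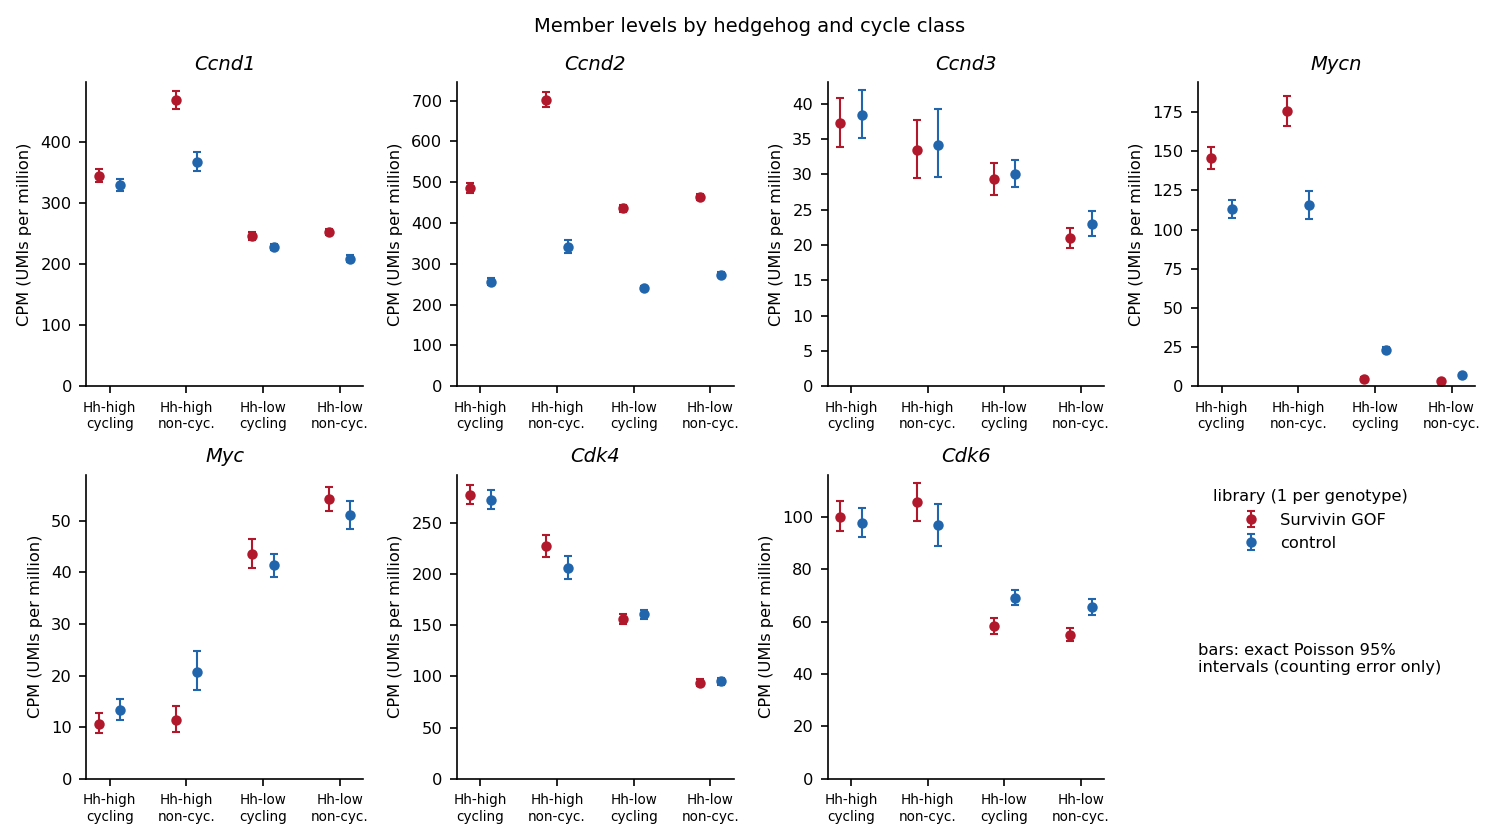
Level of each gene (CPM, vertical axis from 0) in 4 classes of keratinocytes (horizontal axis) for the Survivin GOF library (red) and the control library (blue); points are pooled sums of 1 library and bars are exact Poisson 95% intervals. Mycn is at 113 to 175.5 CPM in hedgehog-high cells and at 3.40 to 23.1 CPM in hedgehog-low cells, Myc shows the opposite order, and Ccnd2 is higher in Survivin GOF in all 4 classes.

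Counted at 1.5-fold or more, 6 of 7 genes were higher and 1 lower in hedgehog-high non-cycling cells of Survivin GOF. Over the 12321 genes with at least 50 pooled UMIs, 25.0% were that much higher and 11.9% that much lower. In control 3 of 7 were higher and 1 lower, against 24.2% higher and 10.8% lower over all genes. The median log2 ratio of the 7 was 0.89 in Survivin GOF and 0.57 in control, beside 0.22 and 0.23 over all genes tested. With median-of-ratios scaling the ratios shifted by -0.20 and -0.24 on the log2 scale. Survivin GOF then had 4 genes higher and 1 lower, against 17.8% higher and 16.0% lower over all genes. Control then had 2 higher and 1 lower, against 14.7% higher and 15.2% lower over all genes. Higher genes then made up 52.6% of all calls in Survivin GOF and 49.3% in control, against 67.6% and 69.2% with total scaling. Among cycling cells, 3 genes were higher and 1 lower in Survivin GOF (all genes 19.4% and 10.4%), and 2 higher and 1 lower in control (23.3% and 9.86%). Cycling hedgehog-high cells had 145 CPM of Mycn in Survivin GOF and 113 CPM in control, against 4.58 and 23.1 CPM in cycling hedgehog-low cells of those libraries. Other features moved with the class. Krt14, a basal keratin, stood at 5275 CPM in hedgehog-high and 17465 CPM in hedgehog-low non-cycling Survivin GOF cells. The control values of Krt14 were 5195 CPM in hedgehog-high and 14024 CPM in hedgehog-low cells. Krt10, a keratin of differentiating suprabasal cells, stood at 740 CPM in hedgehog-high and 5097 CPM in hedgehog-low non-cycling Survivin GOF cells, and at 1867 and 6788 CPM in those classes of control. Of 6 fibroblast markers, Dcn made up most of the UMIs and stood at 1768 CPM in hedgehog-high and 66.9 CPM in hedgehog-low non-cycling Survivin GOF cells outside cluster 17, and at 941 and 88.1 CPM in those classes of control. Col1a2 stood at 7.25 CPM in hedgehog-high and 0.208 CPM in hedgehog-low Survivin GOF cells, and at 11.2 and 0.715 CPM in those classes of control. The 6 markers summed to 1777 CPM in hedgehog-high and 67.3 CPM in hedgehog-low Survivin GOF cells, and to 953 and 89.4 CPM in those classes of control. Lum and Pdgfra were at most 0.647 CPM in all of these, and Pdgfra was at 0 in hedgehog-high Survivin GOF cells. The part of such cell state differences in the ratios was not tested.

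The pattern was also read cluster by cluster, in 9 hedgehog-high and 32 hedgehog-low sums of at least 50 cells of 1 library. Mycn did not overlap between the classes: its lowest hedgehog-high sum was 65.2 CPM, in cluster 23 of Survivin GOF, and its highest hedgehog-low sum was 40.2 CPM, in cluster 17 of control. Of 5979 genes with a mean of at least 20 CPM over the sums, 1.15% lay wholly above and 0.0502% wholly below. Mycn met that bound only through its hedgehog-high sums, as its median hedgehog-low sum was 3.51 CPM in Survivin GOF and 7.12 CPM in control. It also had a correlation of 0.971 with Ptch1, which helped to define the classes. The non-overlap of Mycn is therefore a description only, and nothing is read from it against these shares. Myc came close to the reverse but overlapped. Its highest hedgehog-high sum was 32.2 CPM, in cluster 23, and its lowest hedgehog-low sum was 27.4 CPM, in cluster 8 of control. Without cluster 23 the highest hedgehog-high value of Myc was 26.0 CPM, in cluster 15 of control. The all-gene shares above hold with cluster 23 in, so no separation of Myc is read without it. The reading without cluster 23 was chosen after the values were seen.

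Ccnd1 in Survivin GOF ranged between 284 CPM (cluster 14) and 526 CPM (cluster 9) over hedgehog-high clusters and between 21.7 CPM (cluster 18) and 362 CPM (cluster 6) over hedgehog-low clusters. In control the hedgehog-high range was 266 to 482 CPM and the hedgehog-low range 35.9 to 363 CPM. The hedgehog-low ranges were wider, with cluster 18 at the low end in both libraries. They also cover more clusters, 15 in Survivin GOF and 17 in control, against 5 and 4 hedgehog-high clusters, and a range widens with their number. Ccnd2 spread even more widely, with hedgehog-low sums from 74.9 CPM (cluster 12) to 772 CPM (cluster 3) in Survivin GOF and from 31.9 CPM (cluster 18) to 591 CPM (cluster 11) in control. Its hedgehog-high sums ran from 387 to 890 CPM in Survivin GOF and from 202 to 383 CPM in control. Several hedgehog-low clusters therefore held as much Ccnd2 as the hedgehog-high clusters. Cdk4 ran from 178 to 291 CPM in hedgehog-high and from 56.4 to 192 CPM in hedgehog-low clusters of Survivin GOF. In control Cdk4 ran from 174 to 305 CPM in hedgehog-high and from 59.9 to 184 CPM in hedgehog-low clusters. Cdk6 ran from 89.6 to 118 CPM in hedgehog-high and from 41.2 to 77.7 CPM in hedgehog-low clusters of Survivin GOF. In control the highest Cdk6 sum of all, 136 CPM, belonged to the hedgehog-low cluster 22, which was led by S100a9, Krt6b and S100a8. Ccnd3 stayed within 11.4 to 51.2 CPM over all sums.

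**Figure D2:**
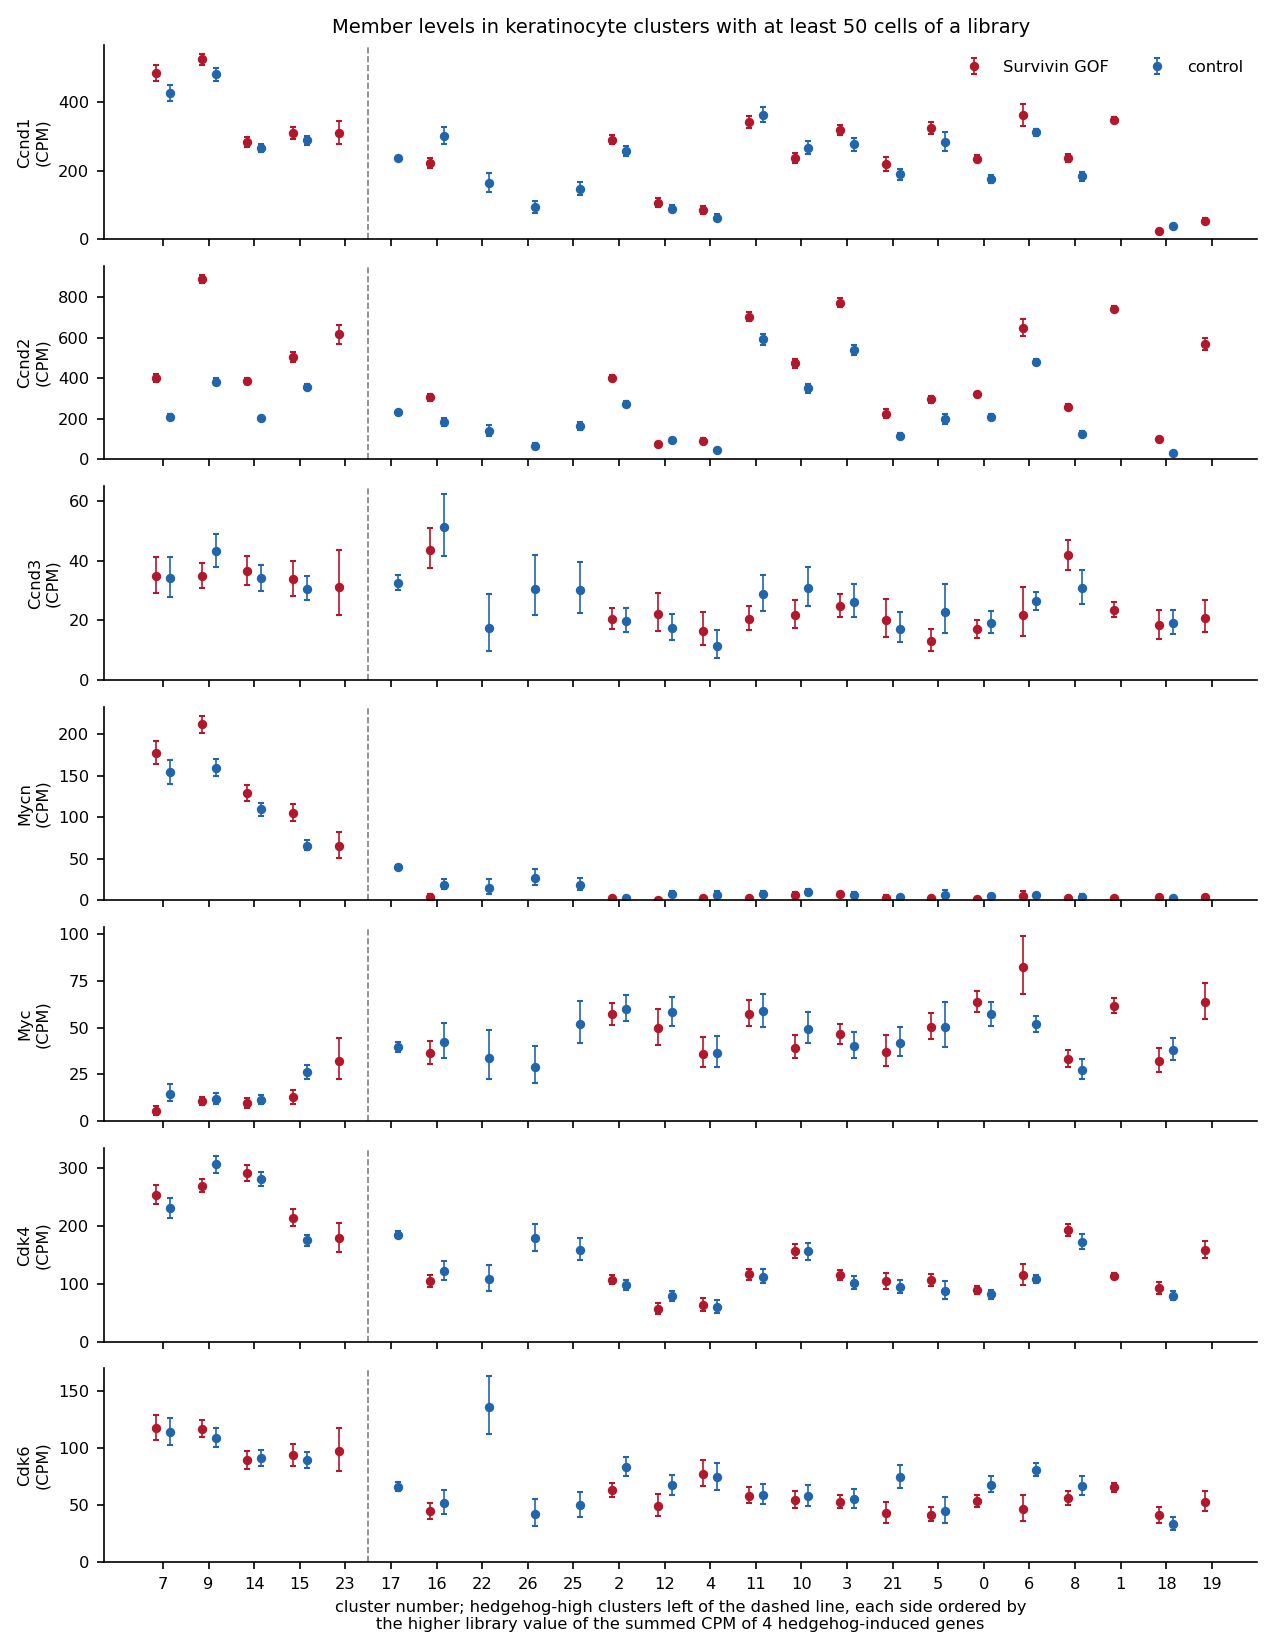
Level of each gene (CPM, vertical axes from 0) in every keratinocyte cluster (horizontal axis) with at least 50 cells of a library, Survivin GOF in red and control in blue, with exact Poisson 95% intervals; hedgehog-high clusters stand left of the dashed line. Mycn is above 65 CPM only to the left, while Ccnd2 reaches 772 CPM to the right of the line, in cluster 3 of Survivin GOF.

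**Figure D3:**
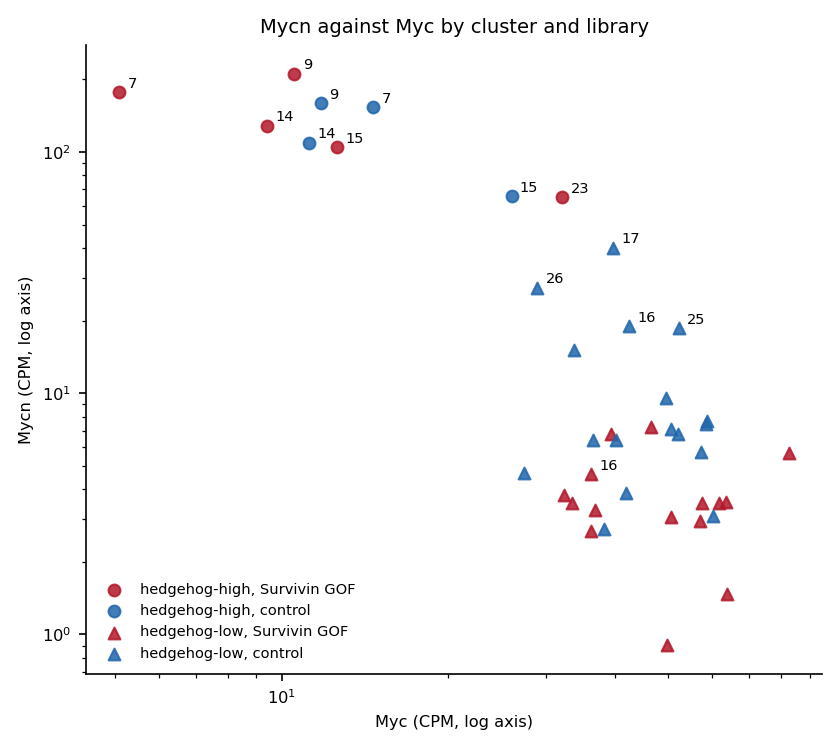
Mycn against Myc (CPM, both axes logarithmic) in 41 sums, each a cluster of 1 library, with circles for hedgehog-high and triangles for hedgehog-low clusters and red for Survivin GOF, blue for control. Hedgehog-high sums lie at 65.2 to 212 CPM of Mycn with at most 32.2 CPM of Myc, and numbered triangles mark hedgehog-low clusters 16, 17, 25 and 26, the 4 with most Mycn.

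In single cells thinned to 3000 UMIs, at least 1 Mycn UMI was seen in 38.1% of hedgehog-high non-cycling Survivin GOF cells and in 25.1% of control cells of that class. The unthinned shares were 72.1% and 46.2%, at median depths of 10974.5 and 7162 UMIs. In hedgehog-low non-cycling cells the thinned shares were 0.869% in Survivin GOF and 1.98% in control, and the unthinned ones 4.06% and 5.54%, at median depths of 11006.5 and 7668.5 UMIs. Melanocyte-like cells, a cell type outside the keratinocytes, gave 0 of 125 Survivin GOF cells, which allows a share of up to 2.40%, and 3.77% of control cells. Immune-like cells gave 5.66% in Survivin GOF and 11.1% in control. Barcodes left out by the filter on genes held 31.7 CPM of Mycn in Survivin GOF and 43.3 CPM in control. The Mycn shares of hedgehog-low non-cycling cells lay below those of immune-like cells in both libraries. None of these populations was shown to lack Mycn, so background and low expression were not told apart. In control hedgehog-low non-cycling cells Mycn was uneven, at 36.4 CPM in cluster 17 and 16.8 CPM in cluster 16. The median over 12 such clusters was 6.29 CPM. Myc was seen in 2.85% of hedgehog-high and 14.99% of hedgehog-low non-cycling Survivin GOF cells, and in 4.96% and 14.5% of the same control classes. Melanocyte-like cells gave Myc shares of 14.4% in Survivin GOF and 12.3% in control. No background was set for Myc either, as no cell type here is known to lack it.

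YFP, the tag of SmoM2, separated the classes as well, at 26.9 CPM in hedgehog-high and 0.831 CPM in hedgehog-low non-cycling Survivin GOF cells. In control YFP stood at 31.5 CPM in hedgehog-high and 4.07 CPM in hedgehog-low cells. All cells had been sorted as YFP-positive. Over the 41 sums the correlation of Mycn with YFP was 0.924, that of Mycn with Myc -0.855 and that of Mycn with Cdk4 0.830. Ccnd1 and Ccnd2 had a correlation of 0.727 with each other. These values describe log2(CPM + 5) over sums that share 2 libraries, their depth and their clusters. Among 5765 genes ranked by the same measure, Cntfr (0.972) and Ptch1 (0.971) were among the 3 nearest to Mycn, and Ptch1 had also helped to define the classes. Nearest to Cdk4 were Prmt1 (0.953), Rfc2 (0.912) and Ash2l (0.904). Nearest to Ccnd1 were Cuedc1 (0.914), Msn (0.898) and Sh3pxd2b (0.866), and nearest to Ccnd2 were Nsa2 (0.836), Svil (0.826) and Spred1 (0.822). For Ccnd3 these were Vps72 (0.805), Cirbp (0.804) and Polr2m (0.793), for Cdk6 Synm (0.798), Slc7a1 (0.791) and Actn4 (0.767), and for Myc S100a14 (0.814), Ndfip1 (0.775) and Anxa8 (0.759). Ccnd2 had a correlation of 0.165 with Ptch1.

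Cdk4 was higher in cycling than in non-cycling cells of every class, and Ccnd1 and Ccnd2 were lower in cycling cells of the hedgehog-high class. In hedgehog-high cells Cdk4 stood at 277 CPM in cycling and 227 CPM in non-cycling Survivin GOF cells (ratio 1.22, 1.15 to 1.29). The control values of Cdk4 were 272 CPM in cycling and 206 CPM in non-cycling cells (1.32, 1.24 to 1.41). In hedgehog-low cells the ratios were 1.66 (1.59 to 1.74) in Survivin GOF and 1.69 (1.61 to 1.77) in control. With clusters weighted equally these hedgehog-low ratios were smaller, at 1.43 in Survivin GOF and 1.17 in control. Cdk4 was higher in cycling cells within 6 of 6 hedgehog-high and 13 of 14 hedgehog-low sums of a cluster and library. The median ratios within clusters were 1.13 in hedgehog-high and 1.22 in hedgehog-low sums. Ccnd2 was lower in cycling hedgehog-high cells, at 486 against 702 CPM in Survivin GOF (0.693, 0.667 to 0.719) and 256 against 342 CPM in control (0.747, 0.707 to 0.790). Ccnd1 was lower there too, at 345 against 469 CPM in Survivin GOF (0.736, 0.704 to 0.769) and 330 against 368 CPM in control (0.898, 0.852 to 0.946). Both differences rested in part on which clusters held the cells. Cluster 14 held 45.4% of cycling hedgehog-high cells in Survivin GOF and 49.8% in control, and 0 of the non-cycling cells of either library. With clusters weighted equally the Ccnd1 ratios were 0.932 in Survivin GOF and 1.07 in control, and the Ccnd2 ratios 0.820 and 0.931. Within single hedgehog-high clusters Ccnd2 was lower in cycling cells in 4 of 6 sums (ratios of 0.720 to 1.16) and Ccnd1 in 3 of 6 (0.767 to 1.36).

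Ccnd3 was higher in cycling hedgehog-low cells, at 29.3 against 20.9 CPM in Survivin GOF (1.40, 1.26 to 1.55) and 30.03 against 23.02 CPM in control (1.30, 1.18 to 1.44). Within single hedgehog-low clusters it was higher in 11 of 14 sums. In hedgehog-high cells Ccnd3 stood at 37.2 CPM in cycling and 33.4 CPM in non-cycling Survivin GOF cells, and at 38.4 and 34.2 CPM in those classes of control. Krt10 moved with cycling too. It stood at 1033 CPM in cycling and 5097 CPM in non-cycling hedgehog-low Survivin GOF cells, and at 3028 and 6788 CPM in those classes of control. In hedgehog-high cells it stood at 331 CPM in cycling and 740 CPM in non-cycling Survivin GOF cells, and at 946 and 1867 CPM in those classes of control. The part of differentiation in the cycling ratios was not tested.

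S and G2/M differed more from each other. Ccnd1 stood at 304 CPM in G2/M and 425 CPM in S in hedgehog-high Survivin GOF cells, and at 293 and 421 CPM in the same phases of control. The G2/M over S ratios of Ccnd1 were 0.716 (0.673 to 0.762) and 0.696 (0.653 to 0.741) in hedgehog-high cells of Survivin GOF and control. They were 0.651 (0.617 to 0.687) and 0.744 (0.703 to 0.787) in hedgehog-low cells. Ccnd2 gave 0.730 and 0.652 in hedgehog-high and 0.582 and 0.560 in hedgehog-low cells of these libraries. Ratios of 0.667 or less were seen in 3.18% of genes in hedgehog-high Survivin GOF, 3.22% in hedgehog-high control, 2.28% in hedgehog-low Survivin GOF and 2.10% in hedgehog-low control cells. Within single clusters Ccnd1 was lower in G2/M than in S in 4 of 4 hedgehog-high and 5 of 5 hedgehog-low sums, and Ccnd2 in 3 of 4 and 4 of 5. The median ratios within clusters were nearer 1, at 0.882 and 0.799 for Ccnd1 and 0.801 and 0.961 for Ccnd2 in these classes. Cdk4 did not share this step, with pooled ratios between 0.997 and 1.09. Cluster 14 held 74.5% of hedgehog-high G2/M cells and 1.22% of S cells in Survivin GOF, and 70.9% and 3.37% in control. The part of cluster makeup in the G2/M over S ratios was not tested. In hedgehog-low cells S phase also stood above non-cycling cells, with Ccnd1 at ratios of 1.25 in Survivin GOF and 1.39 in control and Ccnd2 at 1.27 and 1.39. Within single hedgehog-low clusters the S over non-cycling ratios were nearer 1, from 0.949 to 1.18 for Ccnd1 (higher in S in 4 of 5 sums) and from 0.839 to 1.11 for Ccnd2 (3 of 5).

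**Figure D4:**
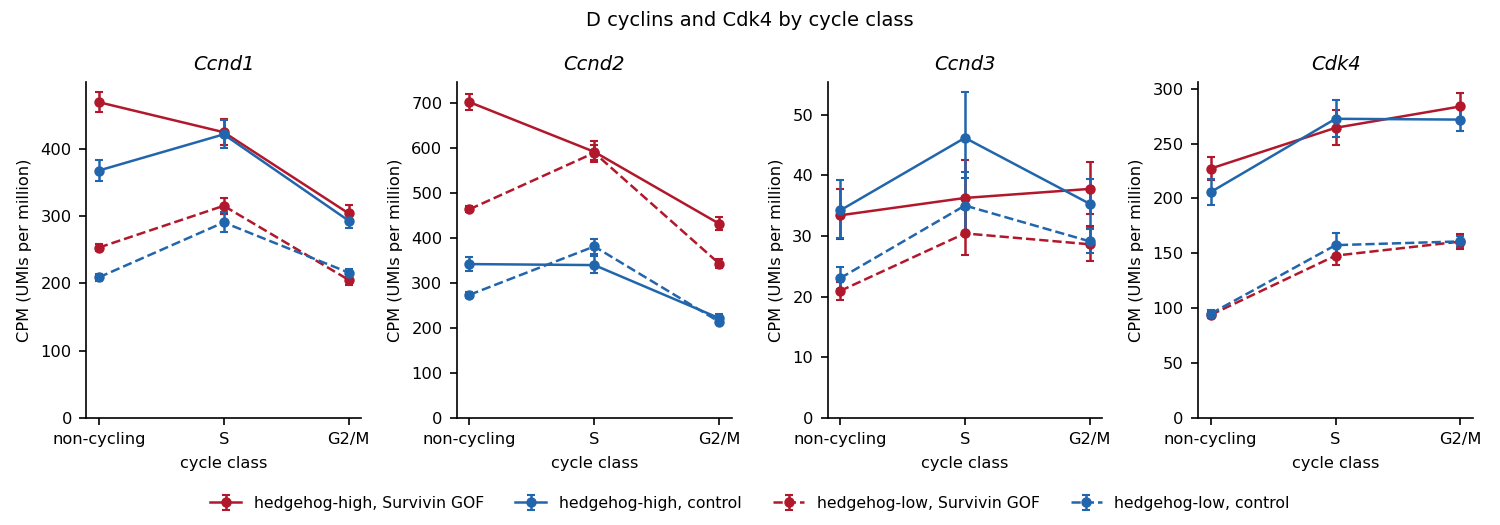
Levels of the D cyclins and Cdk4 (CPM, vertical axes from 0) in non-cycling, S and G2/M cells (horizontal axis), solid lines for hedgehog-high and dashed lines for hedgehog-low cells, red for Survivin GOF and blue for control, with exact Poisson 95% intervals. Ccnd1 and Ccnd2 are lower in G2/M than in S on all 4 lines, while Cdk4 is higher in S and G2/M than in non-cycling cells.

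At 1.5-fold, none of the 7 genes differed between cycling and non-cycling hedgehog-high Survivin GOF cells, where 8.78% of all genes were higher and 7.51% lower. In hedgehog-high control cells 1 was lower, Myc at 0.645 (0.508 to 0.821), against 10.1% of all genes higher and 6.33% lower. In hedgehog-low Survivin GOF cells 1 was higher, Cdk4, against 10.4% higher and 7.95% lower. In hedgehog-low control cells Cdk4 and Mycn were higher, against 12.4% higher and 5.76% lower. The median log2 ratio of the 7 was -0.10 and -0.03 in hedgehog-high and 0.08 and 0.13 in hedgehog-low cells of Survivin GOF and control, beside all-gene medians of -0.01, 0.02, 0.03 and 0.05. Mycn in hedgehog-low control cells stood at 23.1 CPM in cycling and 6.75 CPM in non-cycling cells (3.42, 2.91 to 4.04). Cluster 17, of which 68.5% was G2/M, held 1281 of the 2964 cycling cells and carried most of that. Without it the values were 8.55 CPM in cycling and 5.65 CPM in non-cycling cells. Cluster 17 was led by Col1a1, at 14.7 CPM against 0.275 CPM in other cells, with Ccer2 and Slc39a1, and 3 of 6 fibroblast markers were among its 10 leading genes. The 6 summed to 600 CPM in its control cells, 566 CPM of it Dcn, against 122 CPM in the other hedgehog-low cycling control cells. In hedgehog-high cycling control cells they summed to 1746 CPM, 1716 CPM of it Dcn. Lum and Pdgfra stood at 0.153 and 0.102 CPM in cluster 17. Its summed CPM of the 4 hedgehog-induced genes, 213, was the highest of the hedgehog-low clusters, against 276 over all control keratinocytes. YFP stood at 11.9 CPM in its control cells, and at 33.9 CPM in hedgehog-high and 7.72 CPM in hedgehog-low cycling control cells. The part of fibroblast-marker transcripts or of hedgehog output in the Mycn level of cluster 17 was not tested.

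Between genotypes, Ccnd2 was higher in Survivin GOF in every class of keratinocytes. In hedgehog-high non-cycling cells it stood at 702 CPM in Survivin GOF and 342 CPM in control, a ratio of 2.05 (1.95 to 2.16). In hedgehog-high cycling cells it stood at 486 CPM in Survivin GOF and 256 CPM in control (1.90, 1.82 to 1.99). Hedgehog-low cells gave ratios of 1.70 (1.65 to 1.74) when non-cycling and 1.82 (1.76 to 1.87) when cycling. The difference was seen within clusters: Ccnd2 was higher in Survivin GOF in 4 of 4 hedgehog-high clusters with at least 50 cells of each library. Over cells of all phases, Survivin GOF had 400, 890, 387 and 504 CPM in clusters 7, 9, 14 and 15, and control had 208, 383, 202 and 357 CPM in these clusters. Non-cycling cells alone, which cluster 14 lacks, gave ratios of 2.09, 2.30 and 1.31 in clusters 7, 9 and 15. It was also higher in 12 of 13 hedgehog-low clusters, with ratios between 0.797 (cluster 12) and 3.09 (cluster 18). Over all genes 28.1% were higher in 4 of 4 hedgehog-high clusters, and 13.7% in at least 12 of 13 hedgehog-low clusters.

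Ccnd2 was likewise higher outside the keratinocytes and among the barcodes that were left out. Melanocyte-like cells had 471 CPM in Survivin GOF and 376 CPM in control (1.25, 1.12 to 1.41). Immune-like cells had 637 CPM in Survivin GOF and 337 CPM in control (1.89). Barcodes left out by the filter had 381 CPM in Survivin GOF and 251 CPM in control (1.52, 1.47 to 1.57). The 3 ratios, 1.25 to 1.89, compare with 1.70 to 2.05 in the keratinocyte classes. What a shift shared by the whole library adds to the keratinocyte ratios was not tested.

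Among the hedgehog-high non-cycling cells, Mycn stood at 175.5 CPM in Survivin GOF and 115.5 CPM in control (1.52, 1.39 to 1.67), and Ccnd1 at 469 CPM in Survivin GOF and 368 CPM in control (1.28, 1.21 to 1.35). Myc was lower, at 11.4 CPM in Survivin GOF and 20.7 CPM in control (0.551, 0.414 to 0.731), on 88 and 122 UMIs. Cdk4 (1.10, 1.03 to 1.19), Cdk6 (1.09, 0.979 to 1.22) and Ccnd3 (0.976, 0.809 to 1.18) differed little. The cluster makeup of the class differed between the libraries. Cluster 9 supplied 45.7% of these cells in Survivin GOF and 27.4% in control, and cluster 15 supplied 22.4% in Survivin GOF and 51.5% in control. Within clusters, over cells of all phases, Mycn was higher in Survivin GOF in 4 of 4. Survivin GOF cells had 178, 212, 129 and 105 CPM in clusters 7, 9, 14 and 15, and control cells had 154, 159, 110 and 66.0 CPM in these clusters. Ccnd1 was higher in 4 of 4 with ratios between 1.07 and 1.13, and Myc lower in 4 of 4 with ratios between 0.348 and 0.896. Over all genes, 28.1% were higher in 4 of 4 and 12.8% were lower in 4 of 4. The counts of higher clusters for Mycn and Ccnd1 alone are therefore not read as results. Non-cycling cells alone gave Mycn ratios of 1.10 (0.926 to 1.31), 1.27 (1.12 to 1.46) and 1.81 (1.43 to 2.28) in clusters 7, 9 and 15. They gave Ccnd1 ratios of 1.02 to 1.16 and Myc ratios of 0.302 to 0.707. With clusters weighted equally the Mycn ratio was 1.28. Krt10 stood at 740 CPM in Survivin GOF and 1867 CPM in control non-cycling cells of the class, and the part of differentiation in these ratios was not tested.

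Sex calls moved with some of these values. In hedgehog-high non-cycling cells, Ccnd2 stood at 958 CPM in 159 Y-called Survivin GOF cells (a Y-linked UMI, none of Xist), and at 331 CPM in 520 control cells of the same call. The 322 Survivin GOF cells called by Xist had 569 CPM. Mycn stood at 205 CPM in the Y-called Survivin GOF cells and 119 CPM in the Y-called control cells, and at 149 CPM in the Xist-called Survivin GOF cells. Myc stood at 5.54 CPM in the Y-called Survivin GOF cells and 20.6 CPM in the Y-called control cells, a ratio of 0.269, and at 13.99 CPM in the Xist-called Survivin GOF cells. Ccnd1 stood at 565 CPM in the Y-called Survivin GOF cells and 377 CPM in the Y-called control cells, and at 399 CPM in the Xist-called Survivin GOF cells. In this hedgehog-high class the Y-called cells alone thus gave larger differences between the libraries than the pooled cells. Ccnd2, Mycn, Myc and Ccnd1 had different levels in the sex calls of this class within Survivin GOF. In hedgehog-low non-cycling Survivin GOF cells Ccnd2 stood at 454 CPM in Y-called and 482 CPM in Xist-called cells. Ccnd1 stood there at 244 and 259 CPM, Mycn at 2.71 and 3.39 CPM and Myc at 55.6 and 55.0 CPM. The part of cluster makeup in the sex-call differences was not tested.

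In hedgehog-low cells Mycn was lower in Survivin GOF, at 3.40 against 6.75 CPM in non-cycling (0.504, 0.400 to 0.633) and 4.58 against 23.1 CPM in cycling cells (0.199, 0.160 to 0.244). As said above, the non-cycling levels were not told apart from background. Within single hedgehog-low clusters the non-cycling Mycn ratios ran from 0.163 to 2.03, with a median of 0.570. Mycn was also lower in Survivin GOF in melanocyte-like cells (0.188, 0.0441 to 0.619), on 4 and 12 UMIs. Immune-like cells gave 0.538 (0.254 to 1.13) and barcodes left out by the filter 0.732 (0.655 to 0.816). The part of a shift shared by the whole library in the Mycn ratios was not tested. Leaving out clusters mostly of 1 library put control cycling cells at 6.94 CPM and Survivin GOF cycling cells at 4.65 CPM. Cdk6 was slightly lower in Survivin GOF, with ratios of 0.837 (0.786 to 0.892) in non-cycling and 0.843 (0.787 to 0.903) in cycling cells. Over 13 single clusters its ratios ran from 0.573 to 1.23, with a median of 0.858. Ccnd1 had ratios of 1.21 in non-cycling and 1.08 in cycling cells. The all-gene median log2 ratios were 0.10 and 0.09 in these classes, so Ccnd1 in cycling cells lay near the median gene. Myc, Ccnd3 and Cdk4 gave ratios between 0.909 and 1.06.

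**Figure D5:**
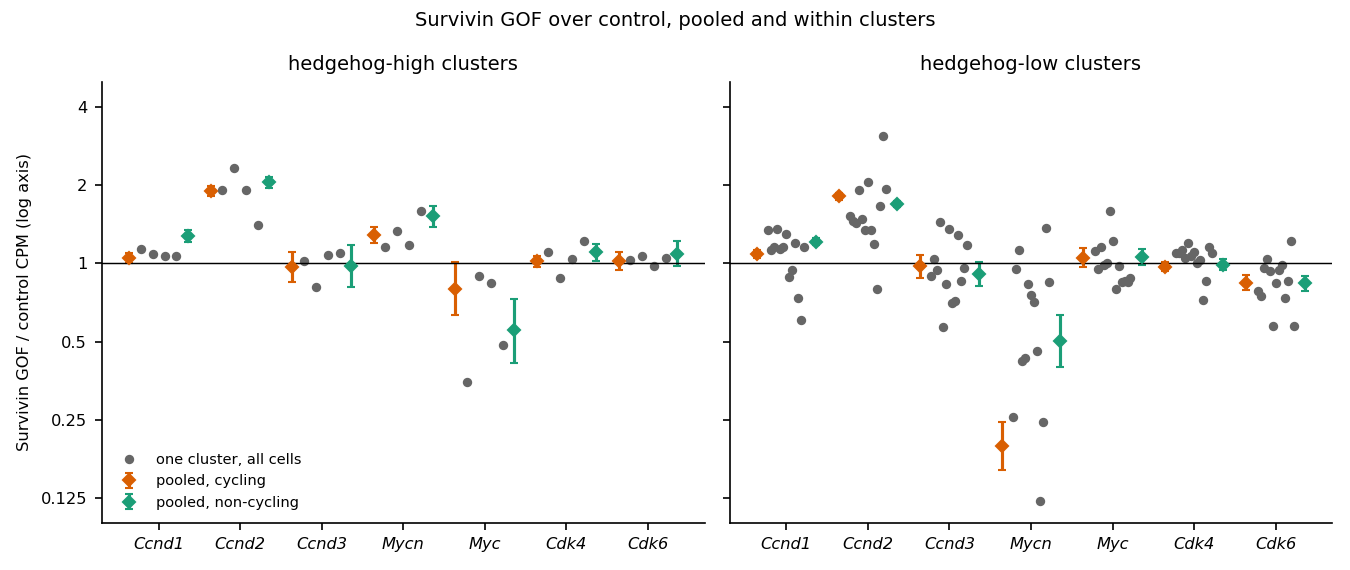
Ratio of Survivin GOF to control CPM (vertical axis, logarithmic) for each gene in hedgehog-high clusters (left panel) and hedgehog-low clusters (right panel); orange diamonds pool cycling and green diamonds non-cycling cells with exact 95% intervals, and grey points are single clusters. Ccnd2 lies above 1 for both pooled values and for 4 of 4 and 12 of 13 clusters, and Mycn lies above 1 on the left and mostly below 1 on the right.

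At 1.5-fold, 2 of 7 genes were higher (Ccnd2 and Mycn) and 1 lower (Myc) in Survivin GOF among hedgehog-high non-cycling cells, against 6.91% of all genes higher and 4.50% lower. Among hedgehog-high cycling cells 1 was higher, Ccnd2, against 4.87% higher and 4.82% lower. Among hedgehog-low cells Ccnd2 was higher and Mycn lower, against 6.46% higher and 5.19% lower in non-cycling and 8.59% and 8.0% in cycling cells. The median log2 ratios of the 7 were 0.14, 0.03, -0.02 and -0.04 in these 4 classes, beside 0.09, 0.06, 0.10 and 0.09 over all genes. With median-of-ratios scaling the ratios shifted by -0.08, -0.07, -0.12 and -0.11 on the log2 scale, and Mycn in hedgehog-high non-cycling cells then lay under 1.5-fold. The share of higher among all calls fell under that scaling by over 10 points in each class, to 46.3%, 39.2%, 39.2% and 36.3%, against 60.6%, 50.3%, 55.5% and 51.8% with total scaling.

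The genes that act on D cyclin kinases and on Myc were read as lists, each with its count past 1.5-fold and its median log2 ratio. Over all genes, 25.0% in Survivin GOF and 24.2% in control were that much higher in hedgehog-high non-cycling cells, and 11.9% and 10.8% that much lower. Among 7 CDK inhibitors, 3 were higher and 2 lower in hedgehog-high than in hedgehog-low non-cycling Survivin GOF cells (median 0.34), and in control 2 of 6 were higher and 2 lower (median 0.17). Cdkn2a, which encodes p16 and Arf, stood at 33.9 CPM in hedgehog-high and 0.649 CPM in hedgehog-low Survivin GOF cells, and at 10.8 and 0.581 CPM in the same classes of control. Its neighbour Cdkn2b, also an inhibitor of Cdk4 and Cdk6, stood at 83.0 CPM in hedgehog-high and 21.3 CPM in hedgehog-low Survivin GOF cells, and at 37.1 and 22.2 CPM in those classes of control. Cdkn1a, the p21 gene, went the other way, at 93.4 CPM in hedgehog-high and 215 CPM in hedgehog-low Survivin GOF cells and at 80.4 and 167 CPM in those classes of control. Between genotypes, Cdkn2a was 3.13-fold (2.37 to 4.18) and Cdkn2b 2.24-fold (1.92 to 2.62) higher in Survivin GOF among hedgehog-high non-cycling cells, 2 of the 6 inhibitors measured there (median 0.29), where 6.91% of all genes were higher.

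Of 12 Rb and E2F genes measured, 3 were higher and 1 lower in hedgehog-high non-cycling Survivin GOF cells (median 0.31), and 3 higher and 0 lower in control (median 0.30). A count of 3 in 12 is the share found over all genes, so nothing is read from it. Of 8 later G1/S cyclins and kinases, 3 were higher in each library (medians 0.39 and 0.47). In the Myc network of partners and antagonists, 3 of 11 were higher and 1 lower in Survivin GOF (median 0.32), and 6 of 12 higher and 1 lower in control (median 0.53). The 20 Myc targets, mostly ribosome biogenesis genes, differed little between hedgehog classes. In Survivin GOF 1 was higher and 1 lower (median 0.28), and in control 2 were higher (median 0.21), which is near the all-gene medians of 0.22 and 0.23. Cad, the pyrimidine synthesis enzyme, was the highest, at 2.75 in Survivin GOF and 2.31 in control. Of 6 genes of cyclin D turnover, 0 passed the bound in Survivin GOF, and 1 was higher and 1 lower in control (medians 0.15 and 0.23).

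Hedgehog pathway genes that the class rule did not use gave 7 of 10 higher in Survivin GOF (median 1.32) and 7 of 9 in control (median 1.02). They included Gli2, at 46.1 CPM in hedgehog-high and 6.41 CPM in hedgehog-low Survivin GOF cells and at 53.8 and 8.20 CPM in those classes of control. Of 8 Wnt feedback and effector genes, 6 were higher and 1 lower in each library (medians 1.19 and 1.37). Lef1, a Wnt effector of follicle progenitors, stood at 49.4 CPM in hedgehog-high and 0.467 CPM in hedgehog-low Survivin GOF cells and at 24.4 and 1.78 CPM in those classes of control.

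With cycling, Rb and E2F genes were higher in 8 of 13 in hedgehog-high Survivin GOF, 7 of 13 in hedgehog-high control, 10 of 13 in hedgehog-low Survivin GOF and 6 of 13 in hedgehog-low control cells, with medians of 1.02, 0.70, 0.88 and 0.55. Over all genes 8.78%, 10.1%, 10.4% and 12.4% were higher in these classes. Without cluster 17 the count in hedgehog-low control cells was 7 of 13, beside 11.5% of all genes. Later G1/S genes were higher in 5 of 8 in all 4 classes. Ccne1, the cyclin that acts after the D cyclins, stood at 29.5 CPM in cycling and 2.85 CPM in non-cycling hedgehog-high Survivin GOF cells and at 17.1 and 2.54 CPM in those classes of control. Myc targets were higher in 6 and 5 of 20 in hedgehog-high Survivin GOF and control cells (medians 0.41 and 0.42), and in 3 and 1 of 20 in hedgehog-low cells (medians 0.28 and 0.25). Between genotypes, 0 of 20 Myc targets passed the bound in either hedgehog-high class (medians 0.11 and 0.18). In hedgehog-low cycling cells 7 of 13 Rb and E2F genes were higher in Survivin GOF (median 0.59), beside 8.59% of all genes. Without cluster 17, which held 43.2% of the control cells of that class, the count was 2 of 13 (median 0.31), beside 5.75% of all genes. Ccne1 stood at 25.3 CPM in Survivin GOF and 9.09 CPM in control, and Ccne2 at 30.4 and 12.6 CPM. Without cluster 17 the ratios were 2.24 (1.90 to 2.65) for Ccne1 and 1.83 (1.59 to 2.10) for Ccne2. In that class S cells made up 532 of 1260 cycling cells in Survivin GOF and 548 of 2964 in control, and the part of this phase makeup in the difference was not tested.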

How the data were processed

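Per the file headers, the authors counted UMIs with Cell Ranger 6.1.1, and the deposited values are unnormalized counts per gene and barcode. Build mm10, Seurat 4.2.0 and R 4.3.0 are named in the submitters' processing notes. The labels name both V2 and V3 chemistry of the 3′ kit. No strand setting is stated.

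From these counts, cells with at least 1500 genes and at most 10% mitochondrial UMIs were kept. The automatic scrublet threshold marked 0 cells, so scores at or above the bound of the top 6% were removed per library, which with ties took 426 Survivin GOF cells (6.15%) and 753 control cells (6.85%). Clustering (scanpy 1.11.5 and igraph 0.11.9, with scipy 1.17.1, numpy 2.4.6 and Python 3.11.15) used 2000 variable genes leaving out the 7 genes, Birc5, YFP, sex-linked, mitochondrial and ribosomal genes, 30 components, 15 neighbours and Leiden resolution 1. Non-keratinocyte clusters were named by markers. Phases used 12 mitotic-core and 12 S-core genes on cells thinned to 3000 UMIs, and non-cycling cells had no mitotic-core and at most 1 S-core UMI. Levels, shares and ratios carry exact Poisson, Clopper-Pearson and conditional 95% intervals. Only the ratio intervals were tried on simulated counts. Those counts came from the Poisson model that the intervals assume, with no variation between cells, animals or libraries, so the trial cannot speak to such variation. With 1 library per genotype, differences were read by size, at 1.5-fold over genes with at least 50 pooled UMIs. Neighbours were the 3 genes of highest correlation with a mean of at least 20 CPM, and up to 4 genes of largest ratio were named per list, with further list members named for their role after their values were seen. An item of the class rule and of the neighbours is not reported here. Coordinates are from GENCODE vM21, in which 32235 of 32286 identifiers were found, and 4 of the 7 genes matched the RefSeq promoter table. The genes and lists were chosen with earlier results of these data known. Of 14 alternatives, 12 were planned and 2 (without cluster 17, without cluster 23) were chosen after seeing the data.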

Additional observations from a re-analysis of the deposited data

How the results depend on the processing

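Over 910 values of single-gene ratios under the alternatives, 716 stayed within the 95% interval of the reported ratio, 194 moved outside it and 0 changed side of 1 among ratios past 1.5-fold. The Mycn ratio of hedgehog-high to hedgehog-low non-cycling cells ranged from 28.2, with cells classed singly, to 75.6, with Y-called cells only, in Survivin GOF, and from 13.7 to 20.9 in control. For Ccnd2, Survivin GOF over control ranged from 1.86 to 2.89 in hedgehog-high non-cycling, 1.72 to 2.93 in hedgehog-high cycling, 1.41 to 1.75 in hedgehog-low non-cycling and 1.43 to 1.95 in hedgehog-low cycling cells. In hedgehog-high non-cycling cells Mycn ranged from 1.28 (equal cluster weight) to 1.71 and stayed past 1.5-fold in 9 of 13 alternatives. Of hedgehog-high over hedgehog-low ratios near the bound, Survivin GOF Ccnd2 stayed past it in 9 of 13 (lowest 1.30) and Ccnd3 in 10 of 13, while control Cdk6 passed it in 8 of 13 and Ccnd3 in 7 of 13. Mycn in hedgehog-low cells ranged from 0.415 to 0.916 when non-cycling and 0.159 to 0.697 when cycling.

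Counts of the 7 genes past the bound in either direction changed by over 1.5 times as follows, and the cause was not tested. Smaller changes are not listed. The share of all genes past the bound may also move under these settings and is not given beside the counts. The counts therefore show how far the calls depend on the setting, and are not read against all genes. Hedgehog-high against hedgehog-low non-cycling cells had 6 higher and 1 lower in Survivin GOF, and 3 higher and 1 lower in control, in the main setting. At a fold of 2 this comparison gave 3 in Survivin GOF, and without clusters mostly of 1 library it gave 7 in control. For cycling against non-cycling, hedgehog-high Survivin GOF gave 2 with Y-called cells, 1 with cells classed singly and 2 with the mitotic core alone. Hedgehog-high control gave 0 without doublet removal, with mean per-cell CPM, Y-called cells, cells classed singly, 5000 UMIs, another seed, equal cluster weight and a fold of 2. Hedgehog-low Survivin GOF gave 2 with cells classed singly and with another seed, and 0 at a fold of 2. Hedgehog-low control gave 0 with equal cluster weight, and 1 without clusters mostly of 1 library, without cluster 17 and at a fold of 2. For Survivin GOF against control, hedgehog-high non-cycling cells gave 1 at a fold of 2. Hedgehog-high cycling cells gave 3 with cells classed singly and 0 at a fold of 2. Hedgehog-low non-cycling cells gave 1 with cells classed singly and with equal weight, and 0 at a fold of 2. Hedgehog-low cycling cells gave 0 with equal weight, and 1 without clusters mostly of 1 library and at a fold of 2.

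With a minimum of 200 pooled UMIs, the shares of all genes past 1.5-fold between genotypes were lower, at 3.85% higher and 2.62% lower in hedgehog-high non-cycling, 2.65% and 2.60% in hedgehog-high cycling, 4.03% and 3.14% in hedgehog-low non-cycling and 6.95% and 5.04% in hedgehog-low cycling cells. No paired analysis was possible because each genotype has 1 library and no result comes from a test. Depth limits Mycn in hedgehog-low and Myc in hedgehog-high cells, which rest on 88 to 186 UMIs in non-cycling classes.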
